A study of Mus musculus with 4 samples.

Results

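A set of 10 genes of the Wnt pathway was followed: the feedback inhibitors Axin2, Nkd1, Rnf43 and Znrf3, the receptor genes Lgr4 and Tnfrsf19, the adhesion receptor Cd44, the transcription factor genes Sox9 and Myc, and the cyclin gene Ccnd1. They were chosen by name, with earlier results of these data known, and are 10 of the 19938 genes that the arrays measured through a probe set of their own. Each had 1 such probe set, and all 10 lay above the expression floor on all 4 arrays. That floor was percentile 95 of the receptor genes for smell, pheromones and trace amines, 1207 in number, on the same array, and stood between 6.10 and 6.25. Values are RMA values on the log2 scale throughout, so that a difference of 1 is a 2-fold difference. The brightness of a probe set depends on its own probes, and levels are therefore not compared between genes.

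The samples were crypt cells of the small intestine of adult mice, sorted by flow cytometry and hybridised to 4 arrays, 1 per group. Zip7 KO mice were Zip7flox/flox with villin-CreERT2 and Lgr5-EGFP-ires-CreERT2, and control mice were Zip7flox/+ with the same Cre and reporter alleles. Mice of both genotypes received tamoxifen for 2 days, so that the controls may also lose their 1 floxed copy of the zinc transporter gene Slc39a7 (Zip7). The groups were Zip7 KO labelled Lgr5-Hi, Zip7 KO labelled Lgr5-Med, control labelled Lgr5-Hi and control labelled Lgr5-Med. The labels also call the second fraction Lgr5-Mid. They do not give the number of mice behind an array. The villin promoter drives CreERT2 throughout the intestinal epithelium, and the Lgr5 allele adds CreERT2 in the sorted cells themselves.

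Several checks bear on all values below. Slc39a7 stood at 9.02 and 8.22 in the Zip7 KO arrays labelled Lgr5-Hi and Lgr5-Med, against 8.92 and 8.61 in the control arrays with these labels. It is not known here whether its probes sit in the deleted part, so this checks nothing about the deletion. Lgr5, the receptor gene that carries the sorting reporter, went against the fraction labels. It was at 7.93 under Lgr5-Hi and 11.24 under Lgr5-Med in Zip7 KO, and at 7.79 and 10.97 in the control arrays. Names of fractions are therefore those of the labels, and an exchange of the names in both genotypes would turn the sign of each fraction difference, move each genotype difference to the other fraction with its value kept, and turn the sign of the difference between the genotype differences. Xist was at 5.59 and 5.43 in the Zip7 KO arrays and at 11.64 and 11.84 in the controls, so sex and genotype cannot be told apart. The epithelial gene Epcam lay between 11.57 and 11.66 on the 4 arrays, whereas Ptprc, the pan-leukocyte gene, was below the floor in both Zip7 KO arrays and at 6.44 and 6.53 in the controls. With 1 array per group no difference was tested and no error can be attached to a value. Sizes are set instead against the differences of all genes in the same comparison.

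Wnt proteins bind Frizzled receptors with the co-receptors LRP5 and LRP6, which stops the destruction complex from degrading beta-catenin, and beta-catenin then acts with TCF/LEF factors on target genes. At the base of intestinal crypts this signal maintains the stem cells. Several of its targets feed back on it: AXIN2 is a scaffold of the destruction complex, NKD1 binds Dishevelled, and RNF43 and ZNRF3 are membrane ubiquitin ligases that remove Frizzled from the cell surface. R-spondins, bound by LGR4 and LGR5, clear these ligases and so raise the signal. In bulk samples a lower level can come from fewer cells of a type or from less RNA per cell, and these cannot be told apart.

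Axin2 had the largest fraction difference of the 10 genes in both genotypes. It stood at 8.65 and 10.35 in the Zip7 KO arrays labelled Lgr5-Hi and Lgr5-Med, against 9.01 and 10.45 in the control arrays with these labels. The arrays labelled Lgr5-Hi were thus the low ones in both genotypes, and the Zip7 KO array labelled Lgr5-Hi was the lowest of the 4. Between fractions Axin2 was 3.24-fold lower under Lgr5-Hi in Zip7 KO and 2.72-fold lower in controls. Between genotypes its difference was -0.36 under Lgr5-Hi and -0.10 under Lgr5-Med. A difference of the first size or more was seen in 9.46% of all genes in that comparison, and one of the second size or more in 58.2%.

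Nkd1, the other feedback gene that acts inside the cell, differed much less. It was at 7.18 and 7.70 in the Zip7 KO arrays labelled Lgr5-Hi and Lgr5-Med, and at 7.28 and 7.67 in the control arrays. Both arrays labelled Lgr5-Hi were below both labelled Lgr5-Med, by -0.52 in Zip7 KO and -0.39 in controls. Its genotype differences were -0.09 and 0.03, and the second turned negative, to -0.03, when arrays were centred on housekeeping genes.

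The Frizzled ligases Rnf43 and Znrf3 were both lower under Lgr5-Hi, Rnf43 by more, and had opposite genotype differences. Rnf43 was at 9.16 and 10.41 in the Zip7 KO arrays labelled Lgr5-Hi and Lgr5-Med, against 9.35 and 10.60 in the control arrays. Both Zip7 KO values were below the control value of the same label, by -0.19 and -0.20. Znrf3 was at 8.19 and 9.17 in the Zip7 KO arrays, against 8.05 and 8.92 in the control arrays, and here both Zip7 KO values were the higher ones, by 0.14 and 0.24. Such sizes are common: 33.4% and 30.7% of all genes differed at least as much as Rnf43 under the labels Lgr5-Hi and Lgr5-Med, and 46.7% and 21.4% at least as much as Znrf3. Between fractions Rnf43 was 2.37-fold lower under Lgr5-Hi in Zip7 KO and 2.39-fold lower in controls, and Znrf3 was 1.97-fold and 1.83-fold lower.

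Lgr4, an R-spondin receptor found more widely along the crypt than Lgr5, varied little. It was at 10.22 and 10.60 in the Zip7 KO arrays labelled Lgr5-Hi and Lgr5-Med, and at 10.17 and 10.38 in the control arrays. The fraction differences were -0.38 in Zip7 KO and -0.22 in controls, where Lgr5 had -3.31 and -3.18. The genotype differences of Lgr4 were 0.05 and 0.22, and the first turned to -0.02 after a second quantile normalisation and to -0.03 with a loess trend on mean level taken out.

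Tnfrsf19 encodes TROY, a member of the tumour necrosis factor receptor family that marks crypt base stem cells. It stood at 6.98 and 8.44 in the Zip7 KO arrays labelled Lgr5-Hi and Lgr5-Med, against 7.08 and 8.29 in the control arrays. The 2 arrays labelled Lgr5-Hi were within 0.10 of each other and nearer to the floor than those of any other gene of the 10. The gene was 2.75-fold lower under Lgr5-Hi in Zip7 KO and 2.32-fold lower in controls. Genotype differences were -0.10 under Lgr5-Hi and 0.15 under Lgr5-Med.

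Cd44, a hyaluronan receptor of crypt epithelium that lymphocytes also carry, followed Tnfrsf19 closely. Its values were 9.18 and 10.55 in the Zip7 KO arrays labelled Lgr5-Hi and Lgr5-Med, and 9.27 and 10.52 in the control arrays. It was 2.58-fold lower under Lgr5-Hi in Zip7 KO and 2.38-fold lower in controls. The genotype differences, -0.08 and 0.03, were among the smallest of the 10, and the second turned to -0.03 with centring on housekeeping genes. The list of lymphocyte and myeloid markers was lower in Zip7 KO for 12 of 13 genes under either label, with medians of -0.59 and -0.93. Its summed linear signal was 3074 and 2614 in the Zip7 KO arrays labelled Lgr5-Hi and Lgr5-Med, against 4551 and 5251 in the controls. Above the floor were 10 and 9 of the 13 in the Zip7 KO arrays and 12 in each control array. The part of these cells in the Cd44 values was not tested.

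Sox9, a transcription factor gene of crypt progenitors that Paneth cells need, had the largest genotype difference of the 10 under the label Lgr5-Hi. It was at 9.67 and 10.78 in the Zip7 KO arrays labelled Lgr5-Hi and Lgr5-Med, against 10.05 and 10.97 in the control arrays. Both Zip7 KO values were below the control value of their label, by -0.38 and -0.19. At least as large a difference was seen in 7.55% of all genes under Lgr5-Hi and in 31.3% under Lgr5-Med. Paneth cell markers were lower in Zip7 KO in the same comparisons, 7 of 8 with a median of -0.83 under Lgr5-Hi and 8 of 8 with a median of -1.50 under Lgr5-Med. Their summed linear signal was 27102 and 11857 in the Zip7 KO arrays labelled Lgr5-Hi and Lgr5-Med, and 38488 and 25352 in the controls, with lysozyme Lyz1 at 13.84 and 12.94 and at 13.94 and 13.61. Their part in the Sox9 values was not tested. Between fractions the directions differed: Sox9 was 2.16-fold lower under Lgr5-Hi in Zip7 KO and 1.90-fold lower in controls, while all 8 Paneth markers were higher there in both genotypes, with medians of 1.62 and 1.02.

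Myc, the transcription factor gene through which Wnt signalling drives growth, was nearly level between genotypes. It stood at 9.97 and 11.14 in the Zip7 KO arrays labelled Lgr5-Hi and Lgr5-Med, against 9.90 and 11.17 in the control arrays. The genotype differences were 0.07 and -0.03, the first of which turned to -0.01 with the loess trend removed. Between fractions Myc was 2.25-fold lower under Lgr5-Hi in Zip7 KO and 2.41-fold lower in controls, and it was, beside Rnf43, the gene whose fraction difference was the smaller one in Zip7 KO.

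Ccnd1, which encodes cyclin D1, a driver of entry into S phase, had a pattern of its own among the 10 in the deposited values. It was at 10.31 and 10.58 in the Zip7 KO arrays labelled Lgr5-Hi and Lgr5-Med, against 10.62 and 10.85 in the control arrays. Both Zip7 KO arrays were below both control arrays. This was so for 1 of the 10 genes, beside 15.9% of 12404 genes above the floor on any array. It rests on the small gap between the Zip7 KO array labelled Lgr5-Med and the control array labelled Lgr5-Hi. The medians over genes of these arrays lay -0.0137 and 0.0261 from the mean of the array medians. Centring the arrays on their medians closes that gap, so this order depends on the scaling. The genotype differences were -0.30 and -0.28, equalled or exceeded in size by 14.1% and 16.9% of all genes. Its fraction differences, -0.27 in Zip7 KO and -0.24 in controls, were close to these in size. The proliferation markers differed less between genotypes, with medians of -0.08 and 0.06 over 8 genes. Their summed linear signal was 11363 and 14186 in the Zip7 KO arrays labelled Lgr5-Hi and Lgr5-Med and 11677 and 13390 in the controls.

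**Figure D1:**
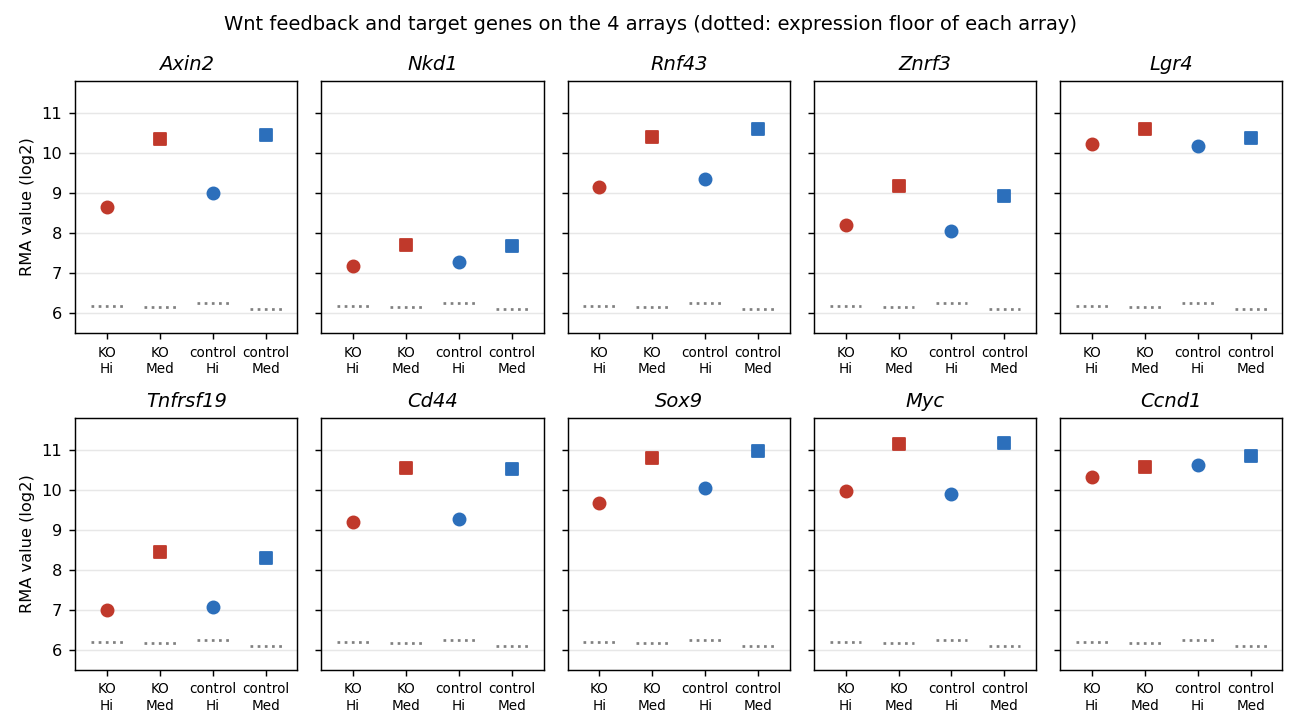
RMA values (log2) of the 10 genes on the 4 arrays, with Zip7 KO in red, control in blue, circles for arrays labelled Lgr5-Hi and squares for those labelled Lgr5-Med; dotted lines mark each array's expression floor, between 6.10 and 6.25. For 9 of the 10 genes both squares lie above both circles, and for Ccnd1 the control circle at 10.62 lies above the Zip7 KO square at 10.58.

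The genotypes were compared first under the label Lgr5-Hi. None of the 10 genes differed 2-fold in either direction, where 0.484% of 11988 genes did, and none differed 1.5-fold, where 2.01% did. Lower in Zip7 KO were 7 genes (Sox9, Axin2, Ccnd1, Rnf43, Tnfrsf19, Nkd1 and Cd44) and higher were 3 (Znrf3, Myc and Lgr4), where 45% of all genes were lower. The median difference was -0.10, against 0.02 over all genes. Sox9 and Axin2 were the 2 genes below percentile 5 of all genes, which was -0.33, and the other 8 lay between it and percentile 95, at 0.36.

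Under the label Lgr5-Med the same comparison gave 5 lower and 5 higher genes, where 55.8% of all genes were lower. The differences ran from -0.28 for Ccnd1 to 0.24 for Znrf3, and all 10 lay between percentiles 5 and 95 of all genes, at -0.40 and 0.29. Here too no gene differed 2-fold, against 0.686% of 12243 genes, or 1.5-fold, against 2.52%. The median was 0.0013, against -0.03 over all genes, and it turned to -0.02, -0.02 and -0.06 under 3 of the alternative scalings. Axin2, Rnf43, Sox9 and Ccnd1 were lower in Zip7 KO under both labels, which is 4 of 10 genes beside 30.8% of 11827 genes. Znrf3 and Lgr4 were higher under both, 2 of 10 beside 30%, although Lgr4 was not with the 2 scalings named above. The other 4 had opposite signs under the 2 labels, beside 39.1% of those genes.

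**Figure D2:**
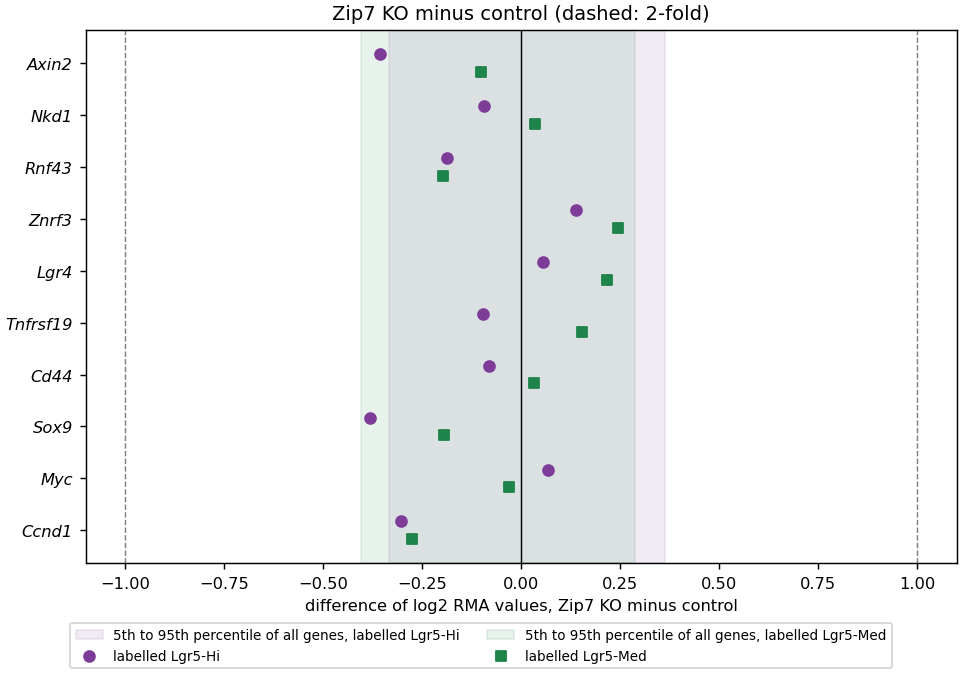
Difference of log2 RMA values, Zip7 KO minus control, for each of the 10 genes, with circles for the label Lgr5-Hi and squares for Lgr5-Med; shading spans percentiles 5 to 95 of all genes in each comparison and dashed lines mark 2-fold. The points lie between -0.38 and 0.24, and Sox9 and Axin2 under Lgr5-Hi are the points outside the shading of their own comparison.

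Between the fractions the 10 genes differed far more. All 10 were lower in the array labelled Lgr5-Hi than in that labelled Lgr5-Med in Zip7 KO, where 50.7% of all genes were lower, and all 10 were lower in controls, where 56.7% were. At least 2-fold lower in Zip7 KO were Axin2, Tnfrsf19, Cd44, Rnf43, Myc and Sox9, 6 of 10 beside 0.751% of 12114 genes. Of these all but Sox9 were at least 2-fold lower in controls as well, beside 0.523% of 12248 genes. It had -0.92 there, a difference that 1.54% of all genes equalled or exceeded. Being 2-fold lower in both genotypes was found for 5 of the 10 genes and for 0.435% of 11958 genes. Lower by at least 1.5-fold were 7 of the 10 in each genotype, Znrf3 added in Zip7 KO and Znrf3 and Sox9 in controls, beside 3.56% of all genes in Zip7 KO and 3.14% in controls. Lgr5, the gene of the sorting reporter, is itself a known Wnt target, so these genes and the sort are not independent.

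The median of the 10 fraction differences was -1.14 in Zip7 KO and -1.07 in controls, against -0.0045 and -0.04 over all genes. Of all genes, 0.429% in Zip7 KO and 0.4% in controls had a lower difference than these medians. Nkd1, Lgr4 and Ccnd1 made up the lower end in size, with values between -0.52 and -0.22, and Znrf3 lay between the groups at -0.98 and -0.87. For 9 of the 10 genes both arrays labelled Lgr5-Med were above both labelled Lgr5-Hi, as were those of 29.9% of 12404 genes. Stem cell markers, Lgr5 among them, ran the same way, with 7 of 7 lower under Lgr5-Hi in both genotypes, medians of -1.42 and -1.19, and a summed linear signal of 10627 under Lgr5-Hi against 26562 under Lgr5-Med in Zip7 KO, and of 11497 against 22617 in controls. Enteroendocrine and goblet markers ran the other way, with 8 of 8 and 6 of 6 higher under Lgr5-Hi in both genotypes. The summed linear signal of the enteroendocrine markers was 15354 under Lgr5-Hi against 2057 under Lgr5-Med in Zip7 KO, and 16572 against 2652 in controls. That of the goblet markers was 42410 against 15329 and 41837 against 20845. The part of the mix of cell types in the values of the 10 genes was not tested.

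**Figure D3:**
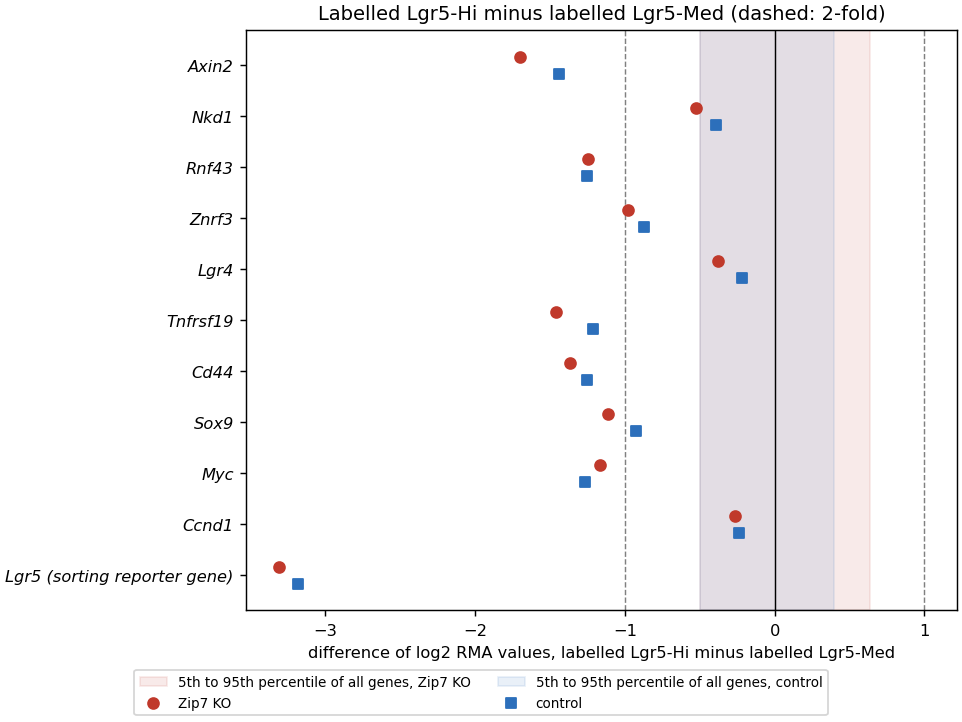
Difference of log2 RMA values, labelled Lgr5-Hi minus labelled Lgr5-Med, for the 10 genes and for Lgr5, with circles for Zip7 KO and squares for control; shading spans percentiles 5 to 95 of all genes and dashed lines mark 2-fold. All points lie below 0, with Axin2 at -1.70 and -1.44 and Lgr5 at -3.31 and -3.18.

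The genotype difference under Lgr5-Hi minus that under Lgr5-Med, which uses all 4 arrays, was below 0 for 8 of the 10 genes, where 39.5% of 11827 genes were below 0. It was -0.26 for Axin2, -0.25 for Tnfrsf19, -0.19 for Sox9 and 0.10 for Myc, with a median of -0.12 against 0.06 over all genes. A difference as large as that of Axin2 or larger was seen in 25.5% of all genes, and as large as that of Tnfrsf19 in 26.4%. No gene of the 10 reached 1 in size, against 0.33% of all genes. Their sign rests on the fraction labels, and they were not tested.

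The profiles of the 10 genes over the 4 arrays were compared with each other. Likeness was the root mean square distance between profiles centred on each gene's own mean over the 4 arrays, and is a description only. Profiles were not scaled, so the distance takes in the size of the differences as well as their order. The closest pair of the 10 was Tnfrsf19 and Cd44, 0.04 apart on the log2 scale, followed by Cd44 and Myc at 0.07. Axin2 and Ccnd1, with Axin2 and Lgr4, were the farthest pairs at 0.66. Axin2 and Lgr4 each had both arrays labelled Lgr5-Med above both labelled Lgr5-Hi, with differences of unlike size. Rnf43 and Znrf3 were 0.25 apart.

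Among 11293 genes above the floor on all 4 arrays, the one nearest to Axin2 was Msi1, an RNA-binding protein gene of crypt base cells, at a distance of 0.04. Msi1 stood at 8.45 and 10.14 in the Zip7 KO arrays labelled Lgr5-Hi and Lgr5-Med, and at 8.89 and 10.21 in the control arrays. Next came Cdca7 at 0.10, a gene linked to DNA methylation and proliferation, and then Prelp, Hunk and Ccdc3 at 0.12. Nearest to the median profile of the 10 genes was Smoc2, a stem cell marker, at 0.03, with Lcp1, Tns3, Mecom and Cabcoco1 at up to 0.05. The Frizzled receptor gene Fzd7 was among the 5 genes nearest to Znrf3, 0.05 away.

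Promoter sequence is shown for Axin2, the gene with the largest fraction difference, and for Tnfrsf19, the gene among those matched whose window held a letter match to the TCF/LEF motif. RefSeq promoter windows of GRCm38.p6 were matched for 6 of the 10 genes (Axin2, Rnf43, Nkd1, Lgr4, Tnfrsf19 and Cd44) with 8 transcription starts. In the 250 bases before each start, 4 motifs were searched on both strands, namely CTTTGAA with its variants CTTTGAT, ending in T, and CTTTGTA or else CTTTGTT. They share their first letters, and a position can match only 1 of them. Of the starts, 1 of Tnfrsf19 had a match, to CTTTGAT on the opposite strand. Along the gene's own strand the match reads ATCAAAG, and the first letter of that reading lies 202 bases before the start. Of 32851 such windows over all genes 14.8% held at least 1 of the 4, and 3.21% held CTTTGAT. The sequences run 5′ to 3′ along the gene's own strand, at chr14:61037988-61038237 (minus strand) for Tnfrsf19 and chr11:108920099-108920348 (plus strand) for Axin2, and capitals mark the match.
Tnfrsf19: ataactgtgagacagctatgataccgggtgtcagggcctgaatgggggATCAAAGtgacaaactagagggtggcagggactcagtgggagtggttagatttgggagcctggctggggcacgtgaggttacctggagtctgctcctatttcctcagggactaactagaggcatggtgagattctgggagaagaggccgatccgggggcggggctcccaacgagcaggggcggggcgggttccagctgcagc
Axin2: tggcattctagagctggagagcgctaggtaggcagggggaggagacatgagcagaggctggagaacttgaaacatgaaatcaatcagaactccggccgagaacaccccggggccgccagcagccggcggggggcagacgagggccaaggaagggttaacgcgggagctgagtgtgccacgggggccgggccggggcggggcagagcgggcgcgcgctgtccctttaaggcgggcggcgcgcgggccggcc
The match is one of letters, and the absence of one in the other windows says only that these letters are not there.

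The rest of the pathway was read from 103 further genes grouped by role, of which 101 had a probe set of their own. None of them differed 2-fold between genotypes, and the medians were -0.05 under Lgr5-Hi over 72 genes above the floor and -0.03 under Lgr5-Med over 75, against 0.02 and -0.03 over all genes. Between fractions 7 of 72 were at least 2-fold lower under Lgr5-Hi in Zip7 KO, beside 0.751% of all genes, and 6 of 75 in controls, beside 0.523%. None was 2-fold higher, and the medians were -0.07 and -0.10.

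Among ligands and the genes that release them, Wnt3, the Wnt made by Paneth cells, had the largest genotype difference. It was at 6.60 and 6.22 in the Zip7 KO arrays labelled Lgr5-Hi and Lgr5-Med, the second close to the floor of 6.16, against 7.22 and 6.77 in the controls, differences of -0.63 and -0.55. Between fractions it was higher under Lgr5-Hi, by 0.37 in Zip7 KO and 0.45 in controls. The Paneth, goblet and enteroendocrine markers were higher there as well. The part of these cells in the Wnt3 values was not tested. Wls, which carries Wnt proteins to the surface, ran opposite to Wnt3, with genotype differences of 0.27 and 0.36 and fraction differences of -0.73 in Zip7 KO and -0.64 in controls. Wnt11 and Wnt3a differed by -0.37 and -0.30 under Lgr5-Hi, and Wnt5b by -0.32 under Lgr5-Med. Their Zip7 KO values also lay close to the floor. Wnt11 was at 6.37 and Wnt3a at 6.25 under Lgr5-Hi, against a floor of 6.18, and Wnt5b at 6.27 under Lgr5-Med, against 6.16. Wnt9a was higher by 0.38 under Lgr5-Hi in controls, and Wnt3a was at -0.29 between the Zip7 KO fractions. Of the 25 genes 14 were above the floor in the genotype comparison under Lgr5-Hi, 10 of them lower in Zip7 KO beside 45% of all genes, and 15 under Lgr5-Med, 8 of them lower beside 55.8%. Apart from Wls, those under Lgr5-Hi stood at 7.37 or lower on both arrays, whose floors were 6.18 in Zip7 KO and 6.25 in control. The shares over all genes are not matched for level, and the part of level in these counts was not tested.

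Receptor genes other than Lgr5 differed less than 2-fold in all 4 comparisons. Fzd7, a Frizzled receptor of intestinal stem cells, was at 7.67 and 8.56 in the Zip7 KO arrays labelled Lgr5-Hi and Lgr5-Med and at 7.47 and 8.46 in the controls, and so nearly 2-fold lower under Lgr5-Hi, by -0.90 and -0.99. Fzd5, the Frizzled of Paneth and other crypt cells, was higher there by 0.66 in Zip7 KO and 0.39 in controls. Between genotypes Fzd2 was at -0.39, Fzd1 at -0.24 and Fzd7 at 0.20 under Lgr5-Hi, and Lgr5 at 0.27, Ptk7 at -0.21 and Fzd9 at -0.20 under Lgr5-Med. Of 14 receptor genes above the floor 11 were lower under Lgr5-Hi in Zip7 KO, beside 50.7% of all genes, and 12 in controls, beside 56.7%.

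Most secreted and surface inhibitors were not expressed above the floor: 6 or 7 of the 16 entered a comparison. Sfrp5, which binds Wnt proteins outside the cell, stood out with 7.55 and 9.11 in the Zip7 KO arrays labelled Lgr5-Hi and Lgr5-Med and 7.57 and 9.09 in the controls. Its fraction differences, -1.56 and -1.52, were like those of Axin2, and its genotype differences were -0.02 and 0.02. Apcdd1, another Wnt-binding inhibitor, was at -0.32 and -0.55 between the fractions of Zip7 KO and control, and Kremen2 at 0.19 in both. Between genotypes Sost was at -0.27 and -0.26, Apcdd1 at -0.21 under Lgr5-Med, and Kremen1 and Kremen2 at -0.05 and -0.09 under Lgr5-Hi. Dkk1 was above the floor in 1 array and had a difference of -0.06 under Lgr5-Med when its Zip7 KO value was set to the floor.

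Cytoplasmic components held no 2-fold difference. The kinase gene Csnk1e was lower under Lgr5-Hi by -0.66 in Zip7 KO and -0.70 in controls, and Gsk3b, a kinase of the destruction complex, by -0.30 and -0.40. Dvl1 and Dvl2, which relay the signal from Frizzled, were at -0.31 and -0.44 between genotypes under Lgr5-Med, and at 0.12 and 0.14 under Lgr5-Hi. Between fractions Dvl1 was at 0.33 in Zip7 KO and Dvl2 at -0.43 in controls. Amer1 was at -0.32 between genotypes under Lgr5-Med. Under Lgr5-Hi, Gsk3b was at 0.24, Apc, the scaffold of the complex, at 0.19, and Cby1 at -0.26. Of 17 genes above the floor 4 were lower in Zip7 KO under Lgr5-Hi, beside 45% of all genes, and 9 under Lgr5-Med, beside 55.8%.

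In the nucleus, the co-repressor gene Tle1 had the largest genotype difference among those of the 103 genes above the floor. It was at 8.42 and 8.21 in the Zip7 KO arrays labelled Lgr5-Hi and Lgr5-Med, against 7.68 and 8.06 in the controls, or 0.73 and 0.15 higher. Tle4 was at 0.33 and Tcf7l1 at -0.27 under Lgr5-Hi, while under Lgr5-Med Tcf7l1 was at -0.18 and Bcl9 at -0.17. Pygo1 was at -0.19 there with its Zip7 KO value set to the floor. Between fractions Tle3 was lower under Lgr5-Hi by -0.43 and -0.46, Bcl9l by -0.44 in Zip7 KO, and Tle1 and Bcl9 by -0.38 and -0.33 in controls, with Tle4 higher by 0.50 in Zip7 KO. Ctnnb1, which encodes beta-catenin itself, lay between 11.53 and 11.63 on the 4 arrays, although its activity is set by protein stability and not by this level.

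Other Wnt target genes shared the fraction difference in part. Of 11 genes above the floor, some of which are also stem cell markers, 5 were at least 2-fold lower under Lgr5-Hi in Zip7 KO, beside 0.751% of all genes, and 4 in controls, beside 0.523%, with medians of -0.54 and -0.69. Higher under Lgr5-Hi were 3 of them in Zip7 KO and 4 in controls, among them Prox1 by 0.32 and 0.43, Jun by 0.17 and 0.06 and Birc5 by 0.23 and 0.17, with Id2 at -0.34 and 0.17. Ascl2, the transcription factor of Lgr5 stem cells, was at -1.89 in both genotypes, Cdca7 at -1.58 and -1.17, the ion transporter gene Slc12a2 at -1.39 and -1.13, and Smoc2 at -1.11 and -1.09. The receptor gene Ephb3, which positions cells along the crypt, was at -1.10 in Zip7 KO and -0.83 in controls. Between genotypes 9 of the 11, whose median was -0.14, were lower in Zip7 KO under Lgr5-Hi, where 45% of all genes were. Id2 at -0.50, Cdca7 at -0.42 and Prox1 at -0.38 had the largest differences. Under Lgr5-Med 10 of the 11, whose median was -0.06, were lower, where 55.8% of all genes were. Sp5 at -0.41, Slc12a2 at 0.35 and Prox1 at -0.27 had the largest differences there, with Prox1 at 6.24 in the Zip7 KO array, close to the floor of 6.16. Id2, Ets2, Ephb3 and Cdca7 lay between -0.012 and -0.0015. Centring the arrays on their median moved the median of all genes in this comparison from -0.026 to -0.0017. That step is larger than any of these differences, so the count of lower genes depends on the scaling. Prox1 is also expressed by enteroendocrine cells, whose 8 markers had medians of -0.30 and -0.23 in the same comparisons, a part that was not tested.

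**Figure D4:**
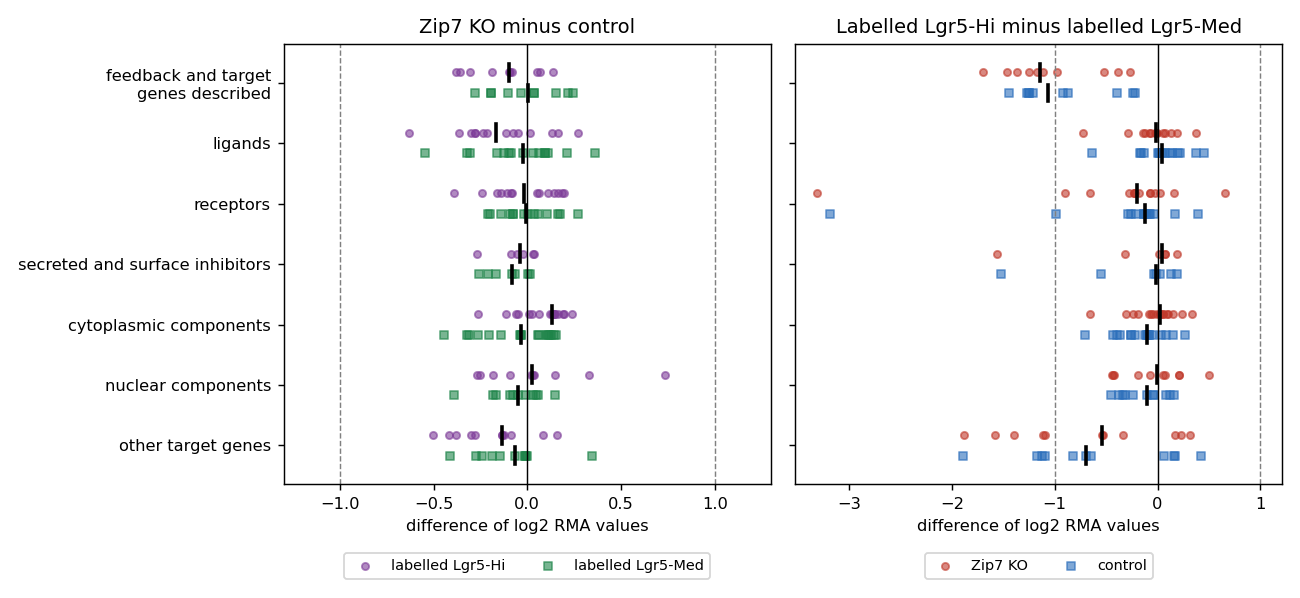
Differences of log2 RMA values for the 10 genes (top row) and for further Wnt pathway genes above the floor by role, with Zip7 KO minus control at left (circles for Lgr5-Hi, squares for Lgr5-Med) and Lgr5-Hi minus Lgr5-Med by label at right (circles for Zip7 KO, squares for control); each point is a gene, black bars are medians, dashed lines mark 2-fold. At right the medians of the 10 genes are -1.14 and -1.07 and those of the other target genes -0.54 and -0.69, while the remaining roles have medians between -0.20 and 0.04.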

How the data were processed

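Sorted crypt cells were measured on 4 Affymetrix arrays, 1 per genotype and fraction label, taken from the titles. The authors deposited 1 value for each probe set and array, obtained by RMA, per the submitters' processing notes. The sources used here do not give the software, its version, the log base or which arrays were normalised as a set. That the deposited values are log2 is inferred here from their range, 3.08 to 14.6. RMA pulls arrays of a set to a common distribution, so a shift of all genes may not be seen. The medians over all probe sets still differed somewhat. They were 6.44 and 6.45 in the Zip7 KO arrays labelled Lgr5-Hi and Lgr5-Med, and 6.43 and 6.34 in the control arrays. Of 35557 probe sets, 21789 had 1 gene symbol in the platform's annotation and were used, and the probe set of highest mean stood for its gene. All 4 columns were used and 0 left out.

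Differences were taken between arrays (Python 3.11.15, pandas 2.3.3, numpy 2.4.6), over genes that passed the floor on 1 or both arrays, receptor genes left out. Calls were differences of at least 1 (2-fold), and 1.5-fold as an alternative. With 1 array per group there is no test, and precision is limited by the number of arrays. Counting was checked on simulated data with large shifts planted in genes above the floor. That check bears on the code and not on the measured differences. The alternatives were scalings, probe set averaging, floors and thresholds.

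The 10 genes and all gene lists were chosen with earlier results of these data known. The text names all 10, and of the other pathway genes those that differ 2-fold and the 3 largest differences per role and comparison above the floor. Ctnnb1, Jun, Birc5 and Ets2 were named after their values were seen, and Slc39a7, Epcam, Ptprc and Xist serve as checks. Likeness names up to 5 genes each. The lists of proliferation, stem cell, Paneth, goblet, enteroendocrine, lymphocyte and myeloid markers are reported beside the genes they bear on.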

Additional observations from a re-analysis of the deposited data

Results flagged for a closer look

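For 4 of the 10 genes the genotype difference had opposite signs under the 2 fraction labels, beside 39.1% of 11827 genes, each with 1 array per group, and the difference between the labels was not tested. Tnfrsf19 was at -0.10 under Lgr5-Hi and 0.15 under Lgr5-Med, Nkd1 at -0.095 and 0.034, Cd44 at -0.081 and 0.034, and Myc at 0.069 and -0.031. For 3 of them the signs were no longer opposite under 1 alternative scaling: Nkd1 and Cd44 were both at -0.029 under Lgr5-Med with the arrays centred on housekeeping genes, and Myc was at -0.014 under Lgr5-Hi with the loess trend removed. Groups of 1 array allow no search for outlying samples.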

How the results depend on the processing

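No paired analysis was possible because each group has 1 array and the labels carry no replicate numbers. For the same reason no array could be left out, and no comparison has an error. In each of the 5 comparisons the median of the 10 genes moved by less than 0.1 under each of 8 alternatives, as did each single gene. Only the scalings could move these values: each of the 10 genes had 1 probe set, and floors and thresholds do not enter its difference. The number of the 10 genes at least 2-fold different stayed at 0, 0, 6 and 5 in the 4 comparisons under the scalings, and was 0, 0, 7 and 7 at 1.5-fold. Floors and probe set averaging could not change these counts. At 1.5-fold the counts over all genes were 241 under Lgr5-Hi and 309 under Lgr5-Med between genotypes, and 1146 in Zip7 KO and 667 in controls between fractions, against 58, 84, 318 and 146 at 2-fold. For the difference between the genotype differences the count was 328 at 1.5-fold and 39 at 2-fold. At 2-fold it was 25 with the loess trend removed and 28 after a second quantile normalisation. It was 41 with either centring, 34 with the higher floor and 46 with no floor, and the cause was not tested. Signs of single genes turned only where the difference was under 0.1, for Lgr4, Myc, Cd44 and Nkd1 between genotypes and for Ccnd1 and Rnf43 in the difference of differences. No sign turned between fractions.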
